A study of Rattus norvegicus with 47 samples.

Results

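Expression of 8 genes, Mrgprx3, Ldhc, Tgm1, Rab44, Cpne8, Prok2, Car4 and Sort1, was followed in rat blood over the first day after middle cerebral artery occlusion (MCAo). These genes were chosen by the steep rise of their blood signal over these same samples, so their changes from 0 h are given here as a description and carry no test. Each gene symbol matched 1 probe set of the array, giving 8 of the 27596 probe sets in the table, or 8 of 20935 named genes. The working idea that the 8 genes have no known role in blood holds only in part, because the prokineticin Prok2, the large GTPase Rab44 and the carbonic anhydrase Car4 are all known from granulocytes. The 8 genes are therefore called by their names below.

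Blood came from 8 male spontaneously hypertensive rats (SHR), aged 16 weeks. All 8 underwent the same transient thread occlusion of the MCA under isoflurane anesthesia, the thread being withdrawn between the 1 h and 2 h samples, and each animal was sampled at 0, 1, 2, 3, 6 and 24 h. The 0 h sample preceded anesthesia, samples up to 6 h came from the tail vein and the 24 h sample came from the heart after an anesthetic overdose, so that at 24 h time and sampling site cannot be told apart. There was no sham-operated group, so occlusion, surgery, anesthesia, handling and repeated bleeding cannot be told apart either, and 1 rat (animal 3) lacked the 6 h sample, leaving 47 arrays. RNA from the pelleted cells of whole blood was measured on Affymetrix rat gene arrays, and values below are log2 signals. Arrays have no read depth, and their number limits the precision.

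The 8 genes belong to unrelated families. Prok2 is a secreted prokineticin, a small peptide that acts through the receptors Prokr1 and Prokr2 and is released by neutrophils. Mrgprx3 belongs to the Mas-related G protein-coupled receptors, best known from sensory neurons and mast cells, and Sort1 encodes sortilin, a sorting receptor that carries cargo such as neurotrophin precursors and progranulin between the Golgi, endosomes and the cell surface. Rab44 is a large Rab GTPase linked to granule release, and Cpne8 is a copine, a family of calcium-dependent membrane-binding proteins. The remaining 3 are enzymes. Ldhc is the lactate dehydrogenase subunit typical of the testis and sperm, Tgm1 is the transglutaminase that cross-links the envelope of skin keratinocytes, and Car4 is a membrane-anchored carbonic anhydrase.

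The start regions of 4 of the genes are shown because they form the early pair and the late pair whose time courses were most alike, Mrgprx3 with Ldhc and Cpne8 with Prok2. Each run is the RefSeq sequence in the rat build GRCr8, from 250 bases before to 50 after the annotated start of the gene, written 5′ to 3′ on the strand of the gene. Capitals mark the letters of any motif searched for. Mrgprx3 lies at chr1:106883096-106883395, minus strand, Ldhc at chr1:106522745-106523044, plus strand, Cpne8 at chr7:123669011-123669310, minus strand and Prok2 at chr4:133917884-133918183, minus strand.
Mrgprx3: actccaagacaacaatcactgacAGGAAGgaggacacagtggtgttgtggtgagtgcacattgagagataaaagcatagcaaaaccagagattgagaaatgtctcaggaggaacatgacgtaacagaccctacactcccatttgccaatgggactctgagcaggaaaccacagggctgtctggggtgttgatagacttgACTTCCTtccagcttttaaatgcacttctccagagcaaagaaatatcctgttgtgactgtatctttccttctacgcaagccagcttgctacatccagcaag
Ldhc: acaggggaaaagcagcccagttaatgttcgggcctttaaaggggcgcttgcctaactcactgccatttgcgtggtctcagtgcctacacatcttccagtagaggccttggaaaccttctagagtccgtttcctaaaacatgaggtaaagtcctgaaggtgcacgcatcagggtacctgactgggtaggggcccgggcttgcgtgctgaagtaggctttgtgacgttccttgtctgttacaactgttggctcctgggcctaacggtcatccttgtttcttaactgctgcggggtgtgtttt
Cpne8: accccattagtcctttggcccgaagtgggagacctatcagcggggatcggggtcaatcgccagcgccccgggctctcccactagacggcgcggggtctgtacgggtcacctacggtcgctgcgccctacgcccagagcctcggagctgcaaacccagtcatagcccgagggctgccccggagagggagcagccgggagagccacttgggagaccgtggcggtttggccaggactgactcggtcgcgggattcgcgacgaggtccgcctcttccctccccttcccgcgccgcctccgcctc
Prok2: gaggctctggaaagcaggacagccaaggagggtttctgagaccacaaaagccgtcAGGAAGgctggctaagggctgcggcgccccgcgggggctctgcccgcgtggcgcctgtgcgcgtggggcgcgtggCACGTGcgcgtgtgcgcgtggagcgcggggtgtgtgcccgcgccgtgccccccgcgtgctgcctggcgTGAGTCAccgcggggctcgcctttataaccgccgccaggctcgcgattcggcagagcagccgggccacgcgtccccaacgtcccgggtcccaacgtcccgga

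The motifs were searched on both strands in all 8 windows. Neither Ldhc nor Cpne8 held any of them. The Prok2 window held an AP-1 motif (TGACTCA or TGAGTCA), which stood in 4.63% of the 33469 RefSeq windows of 300 bases. It also held an E-box (CACGTG, in 6.42% of windows), within which the hypoxia factor core (ACGTG, in 19.3%) overlaps. Car4 and Sort1 also held that core, making 3 of 8. An ETS and PU.1 motif (GGAAGT or AGGAAG) was present in Mrgprx3, Rab44 and Prok2, 3 of 8 against 44.7% of all windows. None of the 8 held the glucocorticoid receptor half-site TGTTCT (20.7% of windows), the STAT motif TTCNNNGAA (8.87%), the C/EBP letters (TTGCGCAA, TTGCGTAA or TTGCATAA, 1.2%) or either NF-kB motif searched for (0.185%). The early pair thus shared no motif, and neither did the late pair. GC content was 46.3% in the Mrgprx3 window, 52.3% in Ldhc, 69% in Cpne8 and 72.7% in Prok2, against a median of 51.7% over all windows.

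The 8 genes differed in when they rose. Onset is taken here as the first time at which at least 50% of the largest log2 change had been reached. By that measure 4 genes had a 1 h onset (Mrgprx3, Ldhc, Rab44 and Sort1), Prok2 a 2 h onset, Tgm1 and Cpne8 a 3 h onset and Car4 a 6 h onset. With onset as the first change above the highest SD of the gene, 6 of the 8 had a 1 h onset, Prok2 and Cpne8 among them, Tgm1 came at 2 h and Car4 at 3 h. Signal peaked at 2 h for 3 of the 8, at 3 h for Rab44 and at 6 h for the remaining 4. Another 451 named probe sets had a rise of at least 1 as their largest change. Of these, 135 peaked at 2 h, 61 at 3 h and 248 at 6 h, while 4 peaked at 1 h and 3 at 24 h.

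**Figure D1:**
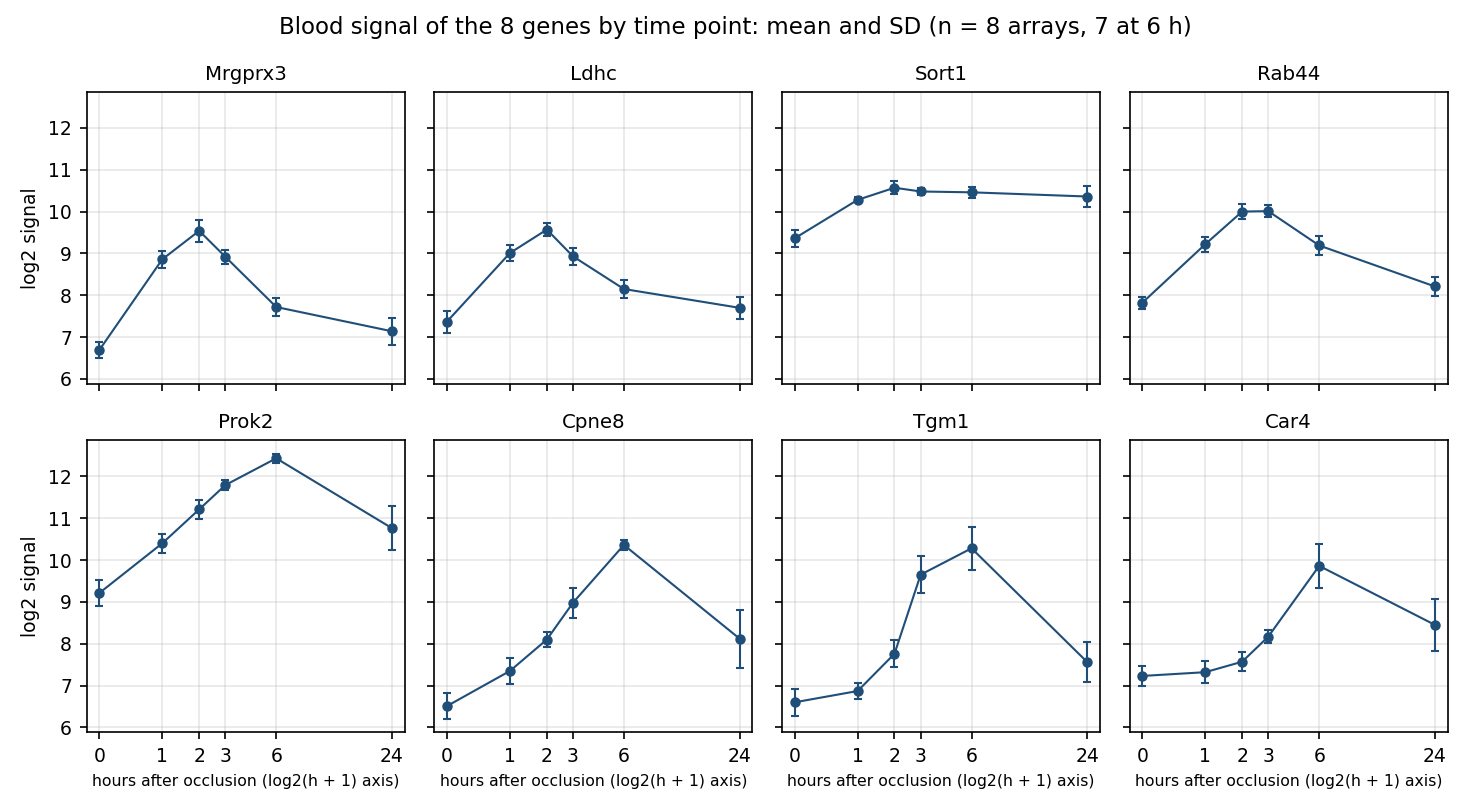
Mean log2 signal of each of the 8 genes (points) with its SD (bars) at 0, 1, 2, 3, 6 and 24 h after occlusion, n = 8 arrays and 7 at 6 h; the time axis is log2(h + 1). Mrgprx3, Ldhc and Sort1 were highest at 2 h, Rab44 at 3 h and the other 4 genes at 6 h, and Sort1 stayed near its highest signal to 24 h. Signal levels of different probe sets are not comparable with each other.

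The secreted ligand Prok2 climbed at every sample up to 6 h. Its log2 signal was 9.21 ± 0.32 before occlusion (the authors' mean ± SD, n = 8 arrays, as for the other genes and times except n = 7 at 6 h) and 10.40 ± 0.23, 11.21 ± 0.22, 11.79 ± 0.12, 12.43 ± 0.11 and 10.76 ± 0.52 at 1, 2, 3, 6 and 24 h. The change at 6 h was 3.22 ± 0.12 (SE), or 9.34-fold, and each step from 0 to 6 h was larger than the SD at either end. The rate slowed, however, from 1.19 in the first hour to 0.81 in the second, 0.59 between 2 and 3 h, and 0.21 per hour from 3 to 6 h. At 24 h the change was 1.54, so that 47.9 ± 6.07% (SE) of the log2 rise was left. The arrays were closest to each other at the peak, with an SD of 0.11, and furthest apart at 24 h, with an SD of 0.52. The rise of Prok2 was the ninth of all probe sets when ranked by the largest rise.

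Mrgprx3, the Mas-related receptor, rose in the first hour. Signals were 6.69 ± 0.20 before occlusion and 8.86 ± 0.20, 9.54 ± 0.27, 8.92 ± 0.17, 7.72 ± 0.22 and 7.14 ± 0.32 at 1, 2, 3, 6 and 24 h. Of its largest change, 2.85 ± 0.12 (SE) or 7.2-fold at 2 h, 76 ± 3.57% (SE) was present at 1 h. Signal then dropped by 0.62 between 2 and 3 h, with a further step of -1.20 to 6 h, and 15.7 ± 4.48% of the rise was left at 24 h. The 24 h change of 0.45 (1.36-fold) exceeded the SD at both 0 h (0.20) and 24 h (0.32).

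The sorting receptor Sort1 had the smallest rise of the 8 and the longest. It measured 9.36 ± 0.20 before occlusion and 10.28 ± 0.06, 10.57 ± 0.16, 10.48 ± 0.09, 10.46 ± 0.13 and 10.36 ± 0.24 at 1, 2, 3, 6 and 24 h. Its largest change, 1.21 ± 0.09 (SE) or 2.31-fold at 2 h, ranked 369 among the rises of all probe sets, against ranks of 2 to 66 for the other 7 genes, so that "steep" describes Sort1 less well. After 2 h the steps of -0.10, -0.01 and -0.11 were each smaller than the SD at one end or both. The 3 and 6 h means lay within the 2 h SD (0.16) of the peak. The 24 h mean lay further from it than that, but within its own SD (0.24). At 24 h 81.8 ± 7.99% of the log2 rise remained.

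Rab44, the granule-linked GTPase, held a plateau from 2 to 3 h. The signal was 7.82 ± 0.14 before occlusion and 9.22 ± 0.18, 10.00 ± 0.17, 10.01 ± 0.15, 9.19 ± 0.23 and 8.21 ± 0.23 at 1, 2, 3, 6 and 24 h. The change of 2.19 ± 0.07 (SE), or 4.55-fold, at 3 h differed from that at 2 h by 0.01, well inside the SD. By 1 h 64.2 ± 3.37% (SE) of it had been reached, 62.7% was still there at 6 h, and 17.8 ± 4.17% was left after a day. Replicates were close throughout, with SDs from 0.14 to 0.23.

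Cpne8, the copine, had the largest rise of the 8. It stood at 6.51 ± 0.31 before occlusion and 7.35 ± 0.32, 8.10 ± 0.18, 8.98 ± 0.36, 10.36 ± 0.11 and 8.12 ± 0.69 at 1, 2, 3, 6 and 24 h. The signal rose at each step up to 6 h, where the change was 3.85 ± 0.12 (SE) or 14.4-fold, the second largest rise among all probe sets. Between 0 and 3 h the steps were nearly even, at 0.83, 0.76 and 0.88. The 24 h change was 1.61, leaving 41.8 ± 6.6%. As for Prok2, the SD was lowest at the peak (0.11) and highest at 24 h (0.69), when the animals differed more than at any earlier time.

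Among the enzymes, Ldhc followed the course of Mrgprx3. Values were 7.37 ± 0.26 before occlusion and 9.01 ± 0.20, 9.57 ± 0.16, 8.93 ± 0.21, 8.15 ± 0.22 and 7.70 ± 0.27 at 1, 2, 3, 6 and 24 h. It gained 1.64 in the first hour, reached 2.20 ± 0.11 (SE), or 4.61-fold, at 2 h and had fallen back to 15.2 ± 5.65% of that rise at 24 h. That last change was 0.34 on the log2 scale, against SDs of 0.26 (0 h) and 0.27 (24 h).

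Tgm1, the keratinocyte cross-linking enzyme, rose late and abruptly. Its signal was 6.60 ± 0.32 before occlusion and 6.87 ± 0.18, 7.76 ± 0.32, 9.65 ± 0.44, 10.28 ± 0.51 and 7.56 ± 0.48 at 1, 2, 3, 6 and 24 h. The first step, 0.27, was smaller than the SD of 0.32 at 0 h, whereas the step from 2 to 3 h was 1.89, larger than any other hourly step of the 8 genes except the first hour of Mrgprx3. The change reached 3.68 ± 0.23 (SE), or 12.8-fold, at 6 h, the third largest rise among all probe sets, and 26 ± 5.3% was left at 24 h.

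Car4, the membrane-anchored carbonic anhydrase, was the last to rise. The measured signal was 7.23 ± 0.23 before occlusion and 7.32 ± 0.27, 7.57 ± 0.23, 8.17 ± 0.16, 9.86 ± 0.53 and 8.45 ± 0.62 at 1, 2, 3, 6 and 24 h. Steps of 0.09 and 0.25 up to 2 h did not exceed the SDs at both ends, and 3.3 ± 4.73% (SE) of the largest change was present at 1 h. Between 3 and 6 h the signal rose by 1.69 to a change of 2.62 ± 0.22 (SE), or 6.16-fold. At 24 h 46.2 ± 9.28% of it was left, with an SD of 0.62 between arrays.

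**Figure D2:**
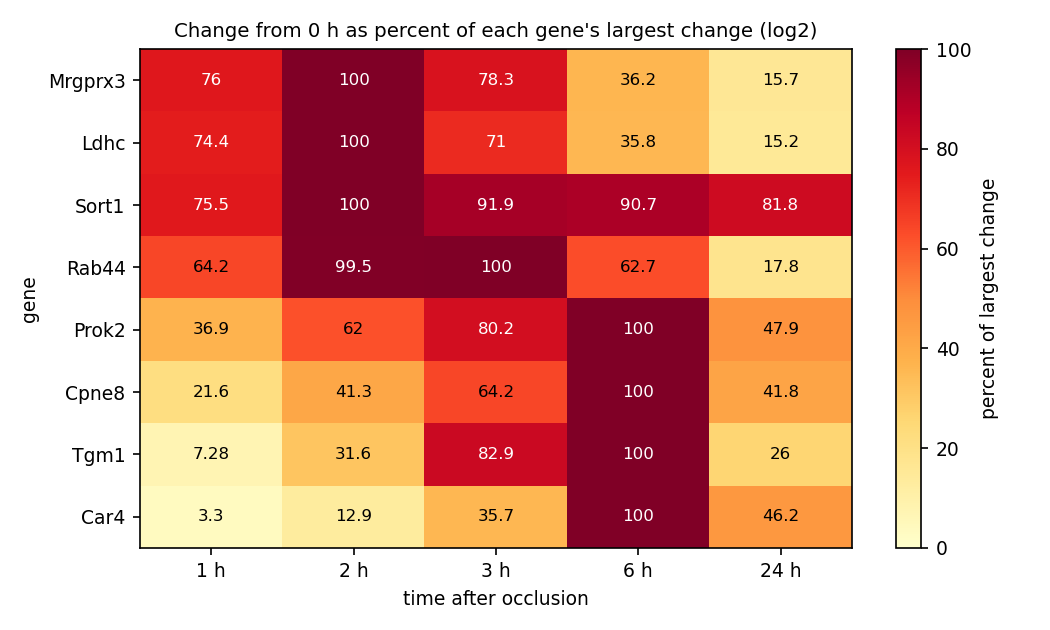
Change from 0 h at each later time (columns) as a percentage of the largest change of the same gene (rows), on the log2 scale; colour and printed value are the same quantity. At 1 h Mrgprx3, Ldhc and Sort1 stood at 74.4 to 76% while Tgm1 and Car4 stood at 7.28% and 3.3%, and at 24 h only Sort1, at 81.8%, kept most of its rise.

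The spread between arrays was widest at 24 h for the median of the 8 genes, though not for Tgm1 (0.51 at 6 h and 0.48 at 24 h) or Rab44 (0.23 at both). The median SD of the 8 lay between 0.16 and 0.24 up to 6 h and was 0.40 at 24 h. Over all probe sets the median SD was between 0.14 and 0.16 at every time. At 24 h all 8 genes were lower than at 6 h and still above 0 h by more than their highest SD. The median share left was 33.9% of the log2 rise, ranging from 15.2% (Ldhc) to 81.8% (Sort1). On the linear scale these shares were smaller, with a median of 12% and values of 5.88% for Mrgprx3, 7.25% for Ldhc, 7.98% for Tgm1, 8.73% for Rab44, 15.3% for Cpne8, 23% for Prok2, 25.5% for Car4 and 75.1% for Sort1.

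Time courses were compared by Pearson's r between the 6 time point means, as a description over 6 points that share the same rats. Mrgprx3 and Ldhc were nearly proportional (r = 1.00), and Rab44 ran close to both (r = 0.93 and 0.92). Cpne8 was most like Prok2 (r = 0.97) and Tgm1 (r = 0.96). Between Mrgprx3, Ldhc and Rab44 on one side and Tgm1, Cpne8, Prok2 and Car4 on the other, r ranged from -0.20 for Ldhc with Car4 to 0.68 for Rab44 with Prok2, with 0.43 for Mrgprx3 with Prok2 and 0.20 for Mrgprx3 with Cpne8. Sort1 was in between, its highest r being 0.83 with Prok2.

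Mrgprx3 and Ldhc also lie in the same stretch of chromosome 1. In the build of the array annotation, rn5, the Ldhc probe set spans chr1:103989930-104006585 and the Mrgprx3 probe set chr1:104362402-104387707, a gap of 356 kb. Of the 16 named probe sets with an end within 500 kb of Ldhc, only Mrgprx3 rose by at least 1, and of the 17 around Mrgprx3 only Ldhc did. At 2 h the median change was 0.04 around Ldhc and 0.05 around Mrgprx3. Ldha, the widely expressed lactate dehydrogenase whose midpoint lies 18 kb from that of Ldhc, changed by 0.30 at 2 h. The nearest Mas-related receptor on the array, Mrgprx1, 68 kb from Mrgprx3, changed by -0.11 at 2 h.

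**Figure D3:**
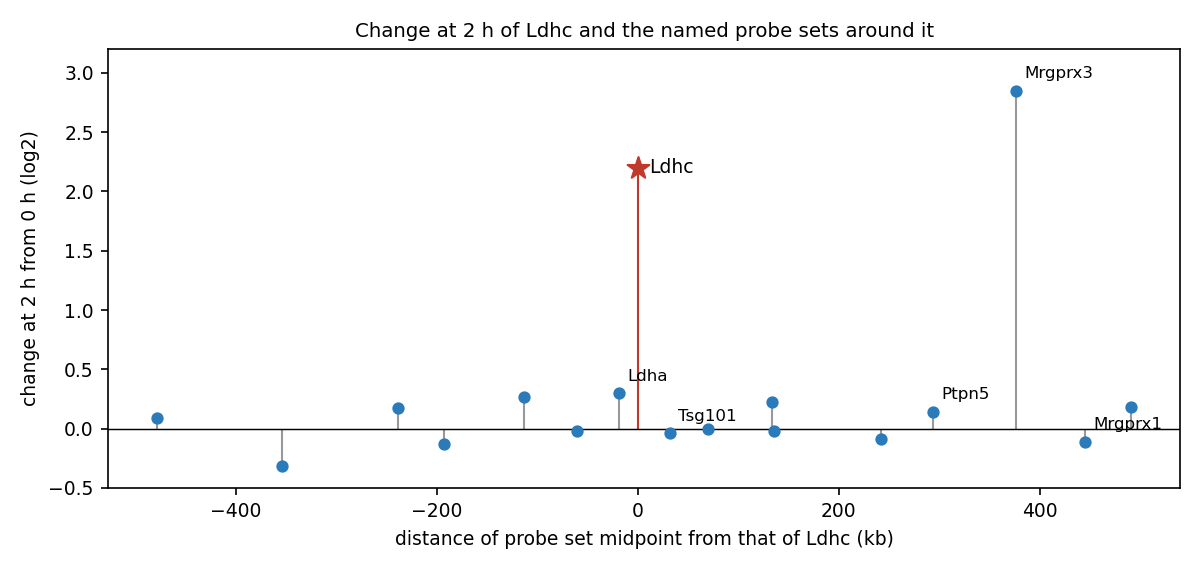
Change in log2 signal at 2 h from 0 h (vertical axis) for Ldhc (star) and the 16 named probe sets around it (points), placed by the distance of their midpoints from that of Ldhc in kb. Ldhc at 2.20 and Mrgprx3 at 2.85, 377 kb away, stand above neighbours that lie between -0.32 and 0.30.

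The other 6 genes lie on separate chromosomes of rn5, Tgm1 at chr15:38268112-38281538, Rab44 at chr20:8642479-8655402, Cpne8 at chr7:131300054-131472890, Prok2 at chr4:196648794-196662391, Car4 at chr10:72179412-72188133 and Sort1 at chr2:230547694-230637210. Within 500 kb, 1 of 4 named probe sets near Prok2, 2 of 18 near Rab44 and 1 of 47 near Tgm1 rose by at least 1. Eif4e3, a cap-binding protein gene 74 kb from Prok2, changed by 1.23 at 6 h with r = 0.99 to Prok2. Near Rab44 lay Cdkn1a, the cell cycle inhibitor p21, with 1.44 at 3 h, and the kinase gene Mapk13 with 1.34 at 2 h. Adcy4, an adenylate cyclase gene near Tgm1, changed by 1.18 at 6 h, while the mast cell protease genes Mcpt8 and Mcpt9 near Tgm1 changed by -1.38 and -1.33 at the same time, with r = -0.97 and -0.95 to Tgm1. No named probe set within 500 kb of Cpne8 (3 probe sets), Car4 (13) or Sort1 (34) rose by at least 1, and Gstm1 near Sort1 fell by 1.02 at 6 h. Over all probe sets, 1.87% (516) rose by that much at some time.

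The named probe sets most like each gene were sought among 832 that changed by at least 1, wherever they lay. The genes followed here were left out of these candidates, but their neighbours were not. Zfp462, a zinc finger gene, was nearest to both Mrgprx3 and Ldhc (r = 0.998 for each), with a change of 1.23 at 2 h and 18.9% left at 24 h. Next came Mir29a for Mrgprx3 (r = 0.994) and the transcription factor gene Zbtb16 for Ldhc (r = 0.994). Rab44 was most like the uncharacterised LOC102554746 (r = 0.998) and Cxadr, a cell adhesion receptor gene (r = 0.990).

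Among the late genes, Tgm1 was closest to Rrm2, a subunit of ribonucleotide reductase that supplies deoxynucleotides, by 2 separate probe sets with r = 0.994 each, which changed by 2.56 and 2.74 at 6 h. Prok2 was closest to Fcgr2b, an inhibitory Fc receptor (r = 0.998), and to Slpi, a leukocyte protease inhibitor (r = 0.996), which changed by 1.02 and 2.77. Cpne8 matched Wdr19 (r = 0.995) and Card10 (r = 0.993), and Car4 matched Gdpd1 (r = 0.993) and Prdm9 (r = 0.974). The nearest to Sort1 were LOC679818 and LOC103690059, both annotated as maltase-glucoamylase-like, with r of 0.995 and 0.994 and 72.8% of their rise left at 24 h. With 6 points and 832 candidates, high values of r are easily found.

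Relatives, binding partners and receptors of the 8 genes were counted as a set of their own. Calls were made gene by gene, and the set as a whole was not tested. The lists were chosen with earlier results of these data known. Of 84 listed, 73 had a probe set. At a false discovery rate (FDR) below 0.05 from a moderated linear model (limma), 46 of the 73 were called higher at 1 or more times, 7 lower and 21 at no time. Over all probe sets 41.6% were called higher and 27% lower at 1 or more times. By time, 34.2% of the related genes (25 of 73) were called higher at 1 h, against 21.7% of all probe sets, and 38.4% (28) at 2 h, against 21.7%. The shares were 39.7% (29) against 27.3% for the 3 h samples, 28.8% (21) against 22.5% for those of 6 h and 35.6% (26) against 17.4% for the last. Lower calls numbered 4, 4, 4, 5 and 3 of the 73 in the same order, where 15.4, 18.6, 19.2, 19.3 and 13.9% of all probe sets were called lower. The changes were mostly small, with a median over the 73 of 0.06 to 0.14, while Cpne3 and Car8 rose by at least 1. With centred medians 49.3% of the related genes (36 of 73) were called higher at 1 or more times, against 31.6% of all probe sets, and after quantile normalization 43.8% (32), against 31.8%. The counts of single families given next are to be read beside these same shares over all probe sets. The background depended on the scaling too, the median probe set lying 0.04 to 0.07 above its 0 h value at every later time. With each time point centred on its median, the share of calls that were higher moved from 58.6% to 40% for the first sample after occlusion, from 58.7% to 47.2% for the 3 h sample and from 55.6% to 37.3% for the last. Since the 8 genes were chosen for their rise and the others by relation to them, their sizes of change are not compared.

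Of the 11 large Rabs and partners in granule release listed for Rab44, 8 were called higher, 0 lower and 3 not at all. Rab3d, a Rab of secretory granules, rose by 0.92 ± 0.08 (SE) at 2 h (limma adjusted p = 6.69e-13). Stxbp2, which chaperones the fusion machinery, also rose by 0.92 at 2 h (limma adjusted p = 1.12e-10). The syntaxin gene Stx11 rose by 0.75 at 6 h (limma adjusted p = 4.24e-08) and Rab27a, which docks granules at the membrane, by 0.63 at 2 h (limma adjusted p = 5.13e-06). Of the 8 called genes 5 had their largest change at 2 h, while Rab37 had it at 1 h (0.57), Stx11 at 6 h and Rab27b at 24 h (0.58).

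Copines were mixed, with 5 of 7 higher (3 after quantile normalization) and 2 lower (1 with the variance of the 2 time points compared). Cpne3 rose by 1.11 ± 0.07 (SE) at 6 h (limma adjusted p = 1.1e-18), the same peak time as Cpne8. Of the 15 other carbonic anhydrases, 9 were called higher (6 with centred medians, 5 after quantile normalization) and 3 lower, Car2 both ways at different times, and 4 were not called. Car8, a carbonic anhydrase-related protein without the enzyme activity, rose by 1.12 ± 0.13 (SE) at 1 h (limma adjusted p = 2.52e-09) and was back at 0.04 at 6 h, when Car4 peaked. The mitochondrial Car5b fell by 0.72 at 1 h (limma adjusted p = 1.47e-05).

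Of the sortilin family, ligands and adaptors, 8 of 13 were called higher (5 after quantile normalization) and 1 lower. Grn, whose product progranulin is a ligand of sortilin, rose by 0.53 ± 0.06 (SE) at 2 h (limma adjusted p = 1.65e-09), the peak time of Sort1, but stood at 0.01 at 24 h. Gga2, an adaptor for sorting receptors at the Golgi, fell by 0.62 at 6 h (limma adjusted p = 7.89e-08). Of 7 transglutaminases and related proteins, 6 were called higher (5 with centred medians, 4 after quantile normalization). Among them F13a1, coagulation factor XIII of platelets and monocytes, had the largest change of 0.59 ± 0.10 (SE) at 24 h (limma adjusted p = 2.75e-05).

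The remaining lists held small changes. Among the prokineticin relatives, Prokr2 fell by 0.46 ± 0.08 (SE) at 6 h (limma adjusted p = 4.53e-06). The change of Prokr1, 0.24 at 24 h, was called (limma adjusted p = 0.0272) but not with centred medians or quantile normalization, and Prok1 was not called. For lactate dehydrogenases, 3 of 4 were called higher (2 under either other scaling). Ldha rose by 0.44 ± 0.15 (SE) at 6 h (limma adjusted p = 0.0147) and Ldhd by 0.27 at 2 h. Of 13 Mas-related receptors, 6 were called higher (4 under either other scaling), a share near the 41.6% of all probe sets. Among them Mrgprx2l changed by 0.31 at 2 h (limma adjusted p = 0.000323) and Mrgprx2 by 0.41 at 24 h (limma adjusted p = 0.0292), the latter lost with centred medians and with quantile normalization. Quantile normalization also called 1 Mas-related receptor and 1 transglutaminase lower.

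**Figure D4:**
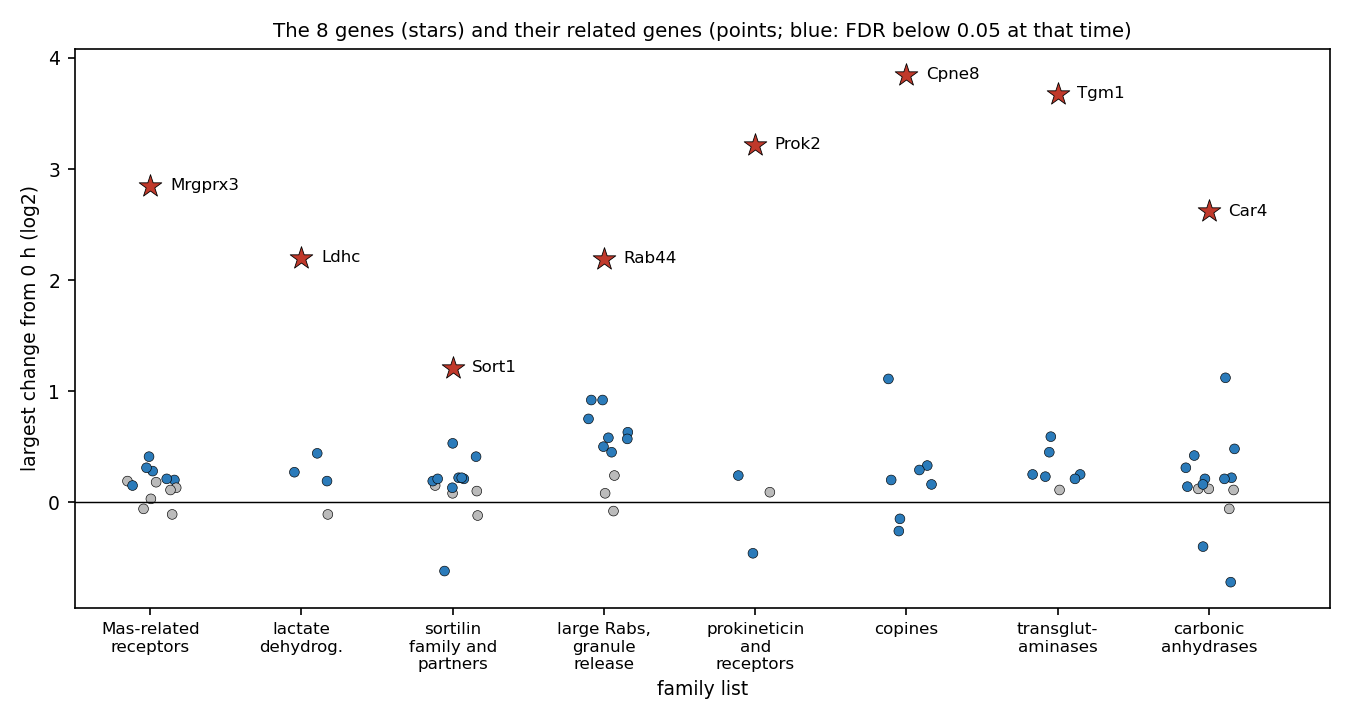
Largest change from 0 h in log2 signal of each of the 8 genes (stars) and of the 73 related genes with a probe set (points) by family list; blue points had an FDR below 0.05 at the time of their largest change and grey points did not. The stars lie between 1.21 and 3.85, as the choice of these genes for a steep rise fixed, and the highest points are Car8 at 1.12 and Cpne3 at 1.11.

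Markers of the blood cells moved over the same hours, and in whole blood more cells of a type and more RNA per cell cannot be told apart. Of 16 neutrophil genes, 15 were called higher (14 after quantile normalization) and none lower, against 41.6% of all probe sets called higher, with median changes of 0.80, 1.19, 1.11, 1.21 and 0.35 at 1, 2, 3, 6 and 24 h. The summed signal of the list was 14.40 on the log2 scale before occlusion, reached 15.73 at 6 h and stood at 14.98 a day after it. Lcn2, the granule protein lipocalin-2, changed most, by 2.81 at 6 h, and the formyl peptide receptor gene Fpr1 by 2.80 at 2 h. Ltf was the gene not called. The part of these markers in the rises of the 8 genes was not tested.

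Most lymphocyte markers fell. All 8 B cell genes and all 8 T cell genes were called lower at 1 or more times (7 of 8 B cell genes after quantile normalization), where 27% of all probe sets were. Of 7 NK cell genes 6 were called lower, while Ncr1 was called higher (0.34 at 6 h, limma adjusted p = 0.00347). The B cell gene Ms4a1 (CD20) changed by -2.56 and Cd79b by -2.37, each at 2 h. The T cell genes Cd4 and Cd8a changed by -1.55 and -1.28, and the NK cell gene Klrk1 by -1.35, all at 6 h. The perforin gene Prf1 changed by -1.02 at 3 h. Monocyte genes were mixed, with Cd14 at 1.84 and Ly86 at -1.78 at 3 h, 4 of 9 being called higher and 6 lower, with Ccr2 both ways at different times. Of 7 basophil and mast cell genes 3 were called higher and 2 lower (2 and 3 with centred medians), near the 41.6% and 27% of all probe sets, and Ms4a2, a subunit of the IgE receptor, fell by 0.83 at 6 h.

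Markers of the cells in which some of the 8 genes are best known were counted too, where over all probe sets 41.6% were called higher and 27% lower at 1 or more times. Of 6 keratinocyte genes 3 were called higher (2 under either other scaling), the median change was at most 0.14, and beside Sfn (0.59 at 6 h) and Lor (0.29 at 1 h), neither Krt1, Krt10 nor Ivl was called. Of 8 male germ cell genes 6 were called higher (3 under either other scaling), with medians of 0.07 to 0.18 and the largest changes in Acr (0.33) and Prm2 (0.32). Of 8 sensory neuron genes 6 were called higher (5 with centred medians, 4 after quantile normalization), with medians of 0.15 to 0.17, led by Trpv1 (0.33) and Scn10a (0.31). Platelet genes (4 of 6 higher, 3 with centred medians) and erythroid genes (3 of 8 higher, 2 lower) had medians between -0.12 and 0.28, Itga2b and Vwf changing most among platelet genes (0.49 and 0.47) and Slc4a1 and Epb42 among erythroid genes (0.58 and 0.45), all at 24 h. The erythroid shares lay near those over all probe sets, and the count called lower was 3 with centred medians, 1 after quantile normalization and 0 with the variance of the 2 time points compared. An array has no true zero, so these small changes do not show whether such RNA was present.

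**Figure D5:**
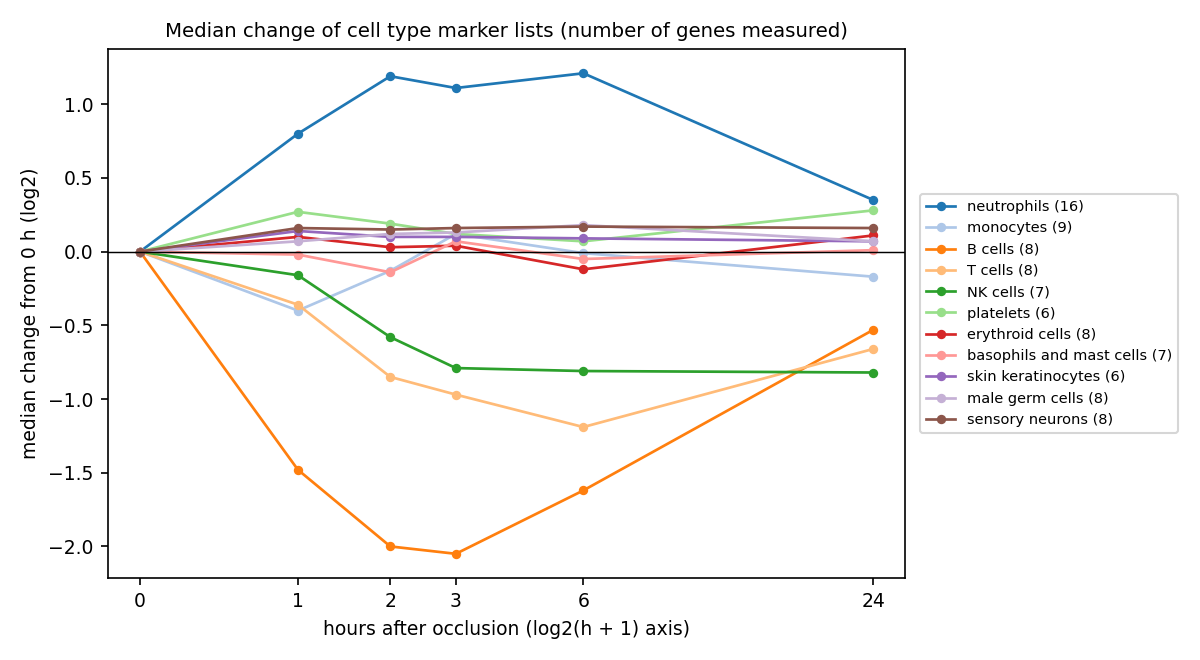
Median change from 0 h in log2 signal of 11 lists of cell type markers (lines, with the number of genes measured) against time on a log2(h + 1) axis. The neutrophil median rises to 1.21 at 6 h, the B, T and NK cell medians fall, to -2.05 for B cells at 3 h, and the keratinocyte, germ cell and sensory neuron medians stay between 0.07 and 0.18 after 0 h.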

How the data were processed

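Total RNA from pelleted blood cells was hybridised to Affymetrix RaGene 1.0 ST arrays. The authors deposited log2 signals normalized by RMA at the gene level, per the file headers, with the na36 annotation on rat build rn5, and for each time point an average and a standard deviation (SD) over arrays. The kind of average is not stated. These 12 columns were used. A further 47 columns of single arrays are named by a running number, with no rat or time, were not assigned to samples by their order, and were not used, so no value of a single animal is given. The deposited fold changes, p-values and F-tests were not used either.

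Samples were grouped by the time in their labels. A one-way moderated linear model was rebuilt from the time point averages, their SDs and the numbers of arrays, using limma 3.58.1 in R 4.3.3, pooling the spread over the 6 time points, with Benjamini-Hochberg adjustment over 27596 probe sets and calls at an FDR below 0.05. It treats arrays as independent although the same rats were sampled repeatedly, so p-values measure only the spread between arrays. It was tested on simulated data. The planned fit on single arrays was replaced by this one. For a symbol with several probe sets, that with the highest mean was taken. SEs of changes in the 8 genes come from the deposited SDs. They too treat the arrays of different times as independent, so they are not SEs of changes within a rat.

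The genes named beside the 8 were, per gene, the 2 named probe sets with the highest r to it, per family up to 4 genes that changed by at least 0.5 at an FDR below 0.05 or else the 2 with the largest change, and per cell list the 2 with the largest change; neighbours and a few single genes were named after their values were seen, and a probe set listed under 2 symbols was not named. The genes and lists were chosen with earlier results of these data known. Epb42 and Mrgprd are each on 2 lists. Start regions come from RefSeq (GRCr8), where all 8 genes matched by symbol. Alternatives covered scaling, variance, a low-signal filter and the definitions of onset and share left.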

Additional observations from a re-analysis of the deposited data

How the results depend on the processing

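Peak times and sizes of change in the 8 genes kept their values within their spread with centred medians and with quantile normalization. Onset depended on its definition. At 25% of the largest rise, 5 genes had a 1 h onset, 2 had a 2 h onset, 1 a 3 h onset and 0 a 6 h onset, and with the first change above the highest SD 6 genes had a 1 h onset, 1 a 2 h onset, 1 a 3 h onset and 0 a 6 h onset. On the linear scale the onset moved to 2 h for Rab44, 3 h for Prok2 and 6 h for Cpne8, giving 2 genes at 6 h, and the median share left at 24 h was 12%. The genes had no second probe set to try. With centred medians 3465 probe sets were called higher at 1 h, 16 of them related genes. The same scaling called 2749 probe sets higher at 24 h, again with 16 related genes. Quantile normalization gave 17 related genes higher at 24 h, and the variance of the 2 compared time points gave 3 lower at 6 h. Ordinary variance, an intensity trend with a robust prior, and leaving out the dimmest 25% of probe sets kept the counts of calls over all probe sets and over the related genes together, at each time, within 1.5 times. No paired analysis was possible because the columns of single arrays are numbered with no rat or time and were not assigned by their order or values, so the fit with the rat as a replicate block was not run. Outlying single samples were not looked for, since these columns were not used.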
